A study of Mus musculus with 4 samples.

Results

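Muscle satellite cells were picked out of single-cell libraries of irradiated and shielded mouse hindlimb muscle by their marker genes. A kept barcode (at least 200 genes, at least 500 unique molecular identifiers or UMIs, at most 20% mitochondrial UMIs) was a member when Pax7, Myf5, Chodl, Cdh15 and Fgfr4 summed to at least 3 UMIs, the endothelial genes Pecam1, Cdh5, Egfl7 and Cldn5 to under 3, and Ptprc and Pdgfra were at 0. By this rule 253 of 6544 kept barcodes were members. The 5 satellite genes chose the members, so their values below are a description.

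The samples came from male C57Bl/6J mice aged 5 weeks, of which one hindlimb received 3 fractions of 8.2 Gy X-rays (IR) while the rest of the body lay under lead. The shielded opposite limb of the same animals was the control (CON), so control tissue had grown in an irradiated mouse. Limbs were taken 24 hours or 56 days after irradiation, which gave IR 24 h, CON 24 h, IR 56 d and CON 56 d. Each group is 1 library of live, mononucleated, sorted cells pooled from 3 limbs, so no test between groups was possible and animals cannot be told apart. Intervals are exact 95% intervals and cover counting error only. Age at collection and library cannot be told apart between the time points.

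Satellite cells are the resident stem cells of skeletal muscle and lie between the fibre and its basement membrane. Pax7, a paired-box transcription factor, marks them, and Myf5 is a myogenic factor already transcribed in most of them. In the adult they rest outside the cell cycle, and injury makes them express Myod1, divide, and fuse into fibres. After ionising radiation p53 is stabilised and raises transcription of target genes, among them the cell cycle inhibitor Cdkn1a.

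The IR 24 h library gave 83 members of 2539 kept barcodes (3.27%, 2.61 to 4.04), and the CON 24 h library 38 of 1336 (2.84%, 2.02 to 3.88). The IR 56 d library gave 38 of 969 (3.92%, 2.79 to 5.34), and the CON 56 d library 94 of 1700 (5.53%, 4.49 to 6.72). The intervals overlapped within each time point. Of kept barcodes without Ptprc, a pan-leukocyte gene, members made 3.61% in IR 24 h (2.88 to 4.45), 4.03% in CON 24 h (2.86 to 5.48), 4.56% in IR 56 d (3.24 to 6.20) and 7.21% in CON 56 d (5.87 to 8.76). A share of a library falls when other cells are recovered in greater number, and these cannot be told apart here.

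Member depth differed between libraries. Median UMIs per member were 4683 in IR 24 h, 7801 in CON 24 h, 3685.5 in IR 56 d and 4545 in CON 56 d, and ribosomal protein genes took 16.6%, 24.6%, 20.6% and 22.6% of member UMIs in that order. Between 1 and 3 barcodes were shared by any pair of libraries, and none of the shared ones was a member. The members just inside the rule, with 3 satellite UMIs, were 11 barcodes, and the barcodes just outside, with 2, were 3. Their median sums over 24 satellite genes that the rule did not use were 20 and 14 UMIs. Of the 11, 6 were tenocyte-gene barcodes in the sense given next, and of the 3, 2 were, so these sums largely describe such barcodes.

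The label did not hold for all members. Of the 253, 36 passed on Chodl alone and had no UMI of Pax7, Myf5, Cdh15 or Fgfr4. The same 36 held 38 to 391 UMIs of 7 tenocyte genes (Scx, Tnmd, Fmod, Thbs4, Comp, Mkx and Kera), which mark tendon cells. The other members held 0 to 2. These tenocyte-gene members numbered 8 in IR 24 h (9.64% of members, 4.25 to 18.1), 2 in CON 24 h (5.26%, 0.644 to 17.7), 9 in IR 56 d (23.7%, 11.4 to 40.2) and 17 in CON 56 d (18.1%, 10.9 to 27.4). Chodl, which encodes the membrane lectin chondrolectin, was therefore present in both kinds of barcode.

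**Figure D1:**
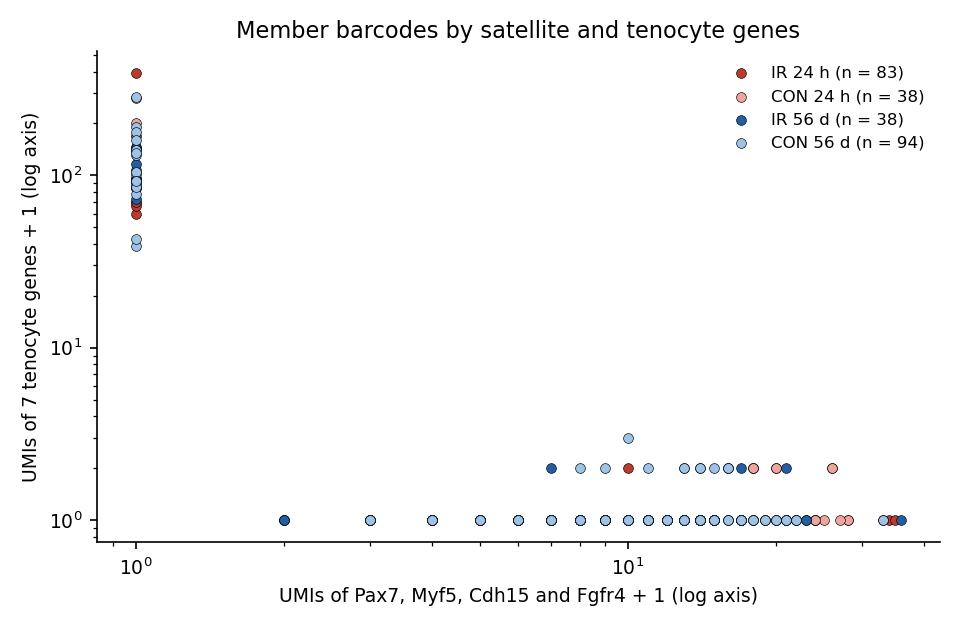
Each point is one member barcode, with the summed UMIs of Pax7, Myf5, Cdh15 and Fgfr4 plus 1 on the x axis and of 7 tenocyte genes plus 1 on the y axis, both log axes, coloured by library. A separate column of 36 barcodes at 0 satellite UMIs holds 38 to 391 tenocyte UMIs, and the other barcodes hold 0 to 2.

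A further 2 members, both in CON 56 d, were rich in haemoglobin and other erythroid genes, with 4634 and 1008 such UMIs against 0 to 4 in the other members. Setting both kinds aside left 215 members (75 in IR 24 h, 36 in CON 24 h, 29 in IR 56 d and 75 in CON 56 d). Pax7 was detected in 207 of the 215, Myf5 in 192, Chodl in 214, Cdh15 in 134 and Fgfr4 in 145. The 215 were chosen after the values had been seen. Levels are given as CPM, which is UMIs of a gene scaled to the summed UMIs of the members of a library. Values are given for all 253 members, and for the 215 where stated.

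In the 215, 24 satellite genes outside the rule (Dag1, Sdc4, Peg3 and others) summed to 14978 CPM in IR 24 h, 11636 in CON 24 h, 14618 in IR 56 d and 13174 in CON 56 d. In endothelial barcodes picked by the mirror of the rule the same genes summed to 2854, 2681, 2326 and 2675 CPM in the same order. Pax7 was found in 0 of 1537, 0 of 469, 1 of 477 and 1 of 760 endothelial barcodes. That set was limited to under 3 UMIs of the 5 rule genes, which caps Pax7 there. Barcodes with at least 3 such UMIs and at least 3 endothelial UMIs were left out of both sets. They numbered 7, 1, 1 and 3 in the same order. The level of free Pax7 RNA was thus not tested. Of a fibro/adipogenic progenitor (FAP) list of 12 genes the 215 held Col3a1, Gsn and Dpt in every library, while Lum, Cfd, Pi16, Smoc2 and Mfap5 were at 0 throughout. That list summed to 2168 CPM in IR 24 h, 2528 in CON 24 h, 1851 in IR 56 d and 2237 in CON 56 d. The 24 satellite genes outside the rule summed to 4757, 3971, 4292 and 4828 CPM in FAP barcodes, defined below, in the same order. In the tenocyte-gene members they summed to 2911, 1747, 2785 and 4963 CPM. In the 215 the Schwann cell list summed to 752 CPM in IR 24 h, 480 in CON 24 h, 883 in IR 56 d and 629 in CON 56 d. Of that list, Sox10 had 4 UMIs in IR 24 h and 0 in CON 24 h. A list of pericyte and smooth muscle genes summed to 758, 1125, 573 and 596 CPM in the 215, in the same order. Rgs5, a pericyte gene of that list, had 3 UMIs in IR 24 h and 39 in CON 24 h. What part these transcripts had in the results below was not tested.

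The 5 genes of the rule did not differ by 2-fold between IR and CON at either time. Pax7 was at 941 CPM in IR 24 h and 593 in CON 24 h, a ratio of 1.59 (1.32 to 1.91), and at 679 CPM in IR 56 d and 771 in CON 56 d, a ratio of 0.881 (0.702 to 1.10). Myf5 was at 826 CPM in IR 24 h and 718 in CON 24 h, and at 718 in IR 56 d and 523 in CON 56 d. Fgfr4, a fibroblast growth factor receptor, was at 143 CPM in IR 24 h and 234 in CON 24 h, and Cdh15, the adhesion molecule M-cadherin, at 226 CPM in IR 24 h and 251 in CON 24 h.

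A gene was measured when both libraries of a comparison held at least 20 UMIs together, and was called when the log2 ratio of CPM, with a prior count of 0.5, was at least 2-fold. At 24 hours 5165 genes were measured, of which 525 (10.2%) were at least 2-fold higher in IR and 177 (3.43%) lower. At 56 days 4784 were measured, of which 323 (6.75%) were higher in IR and 427 (8.93%) lower. Between the shielded limbs, CON 56 d over CON 24 h, 514 (9.46%) of 5435 were higher and 300 (5.52%) lower. In the 215 the shares were 10.2% higher and 3.19% lower at 24 hours, 5.19% and 8.81% at 56 days, and 7.54% and 5.59% between the CON libraries. A 2-fold difference was thus also common between shielded limbs, so the ratio of CON 56 d over CON 24 h is given beside several genes where it passed 2-fold. The median log2 ratio of all measured genes at 24 hours was 0.13 and at 56 days 0.02.

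At 24 hours over 50% of the measured p53 target genes were at least 2-fold higher in irradiated limbs. Of 42 genes listed 22 were measured, and 12 were past that limit and 1 was lower, against 10.2% and 3.43% of all measured genes. Their median log2 ratio was 1.37 (1.24 in the 215, with 11 of 19 higher and none lower). Cdkn1a, which encodes the cyclin-dependent kinase inhibitor p21, had 747 UMIs in IR 24 h and 30 in CON 24 h. That is 1875 CPM (1742 to 2014) in IR 24 h and 102 CPM (68.5 to 145) in CON 24 h, a ratio of 18.5 (12.8 to 27.5). The gene lies on the plus strand of chromosome 17 (chr17:29090976-29100727, mm10). Of the members, 73 of 83 in IR 24 h and 12 of 38 in CON 24 h had a Cdkn1a UMI, and no single barcode held over 33.

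**Figure D2:**
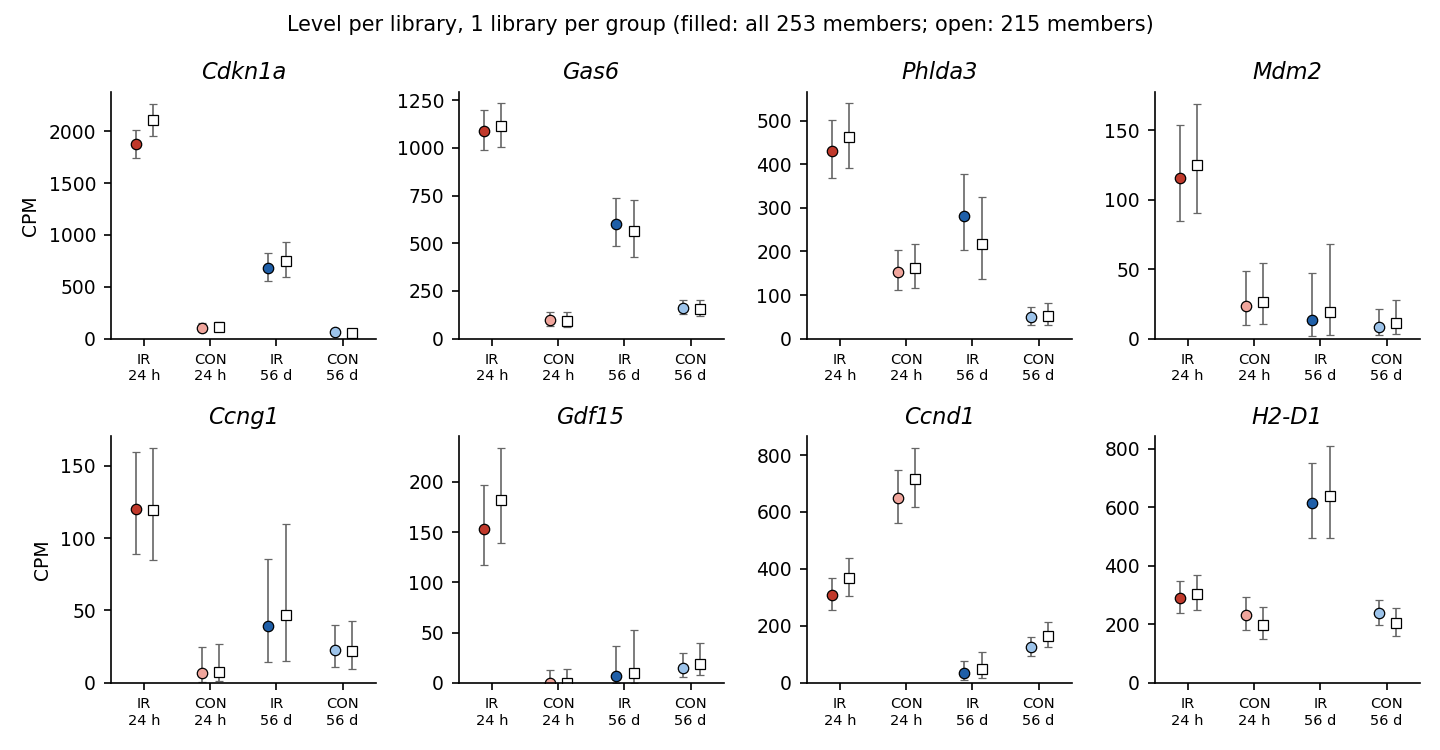
CPM with exact Poisson 95% intervals for 8 genes, 1 library per group, with filled circles for all 253 members and open squares for the 215. Cdkn1a and Gas6 are higher in the irradiated library at both times, Mdm2, Ccng1 and Gdf15 stand out in IR 24 h, Ccnd1 is lower in the irradiated library at both times and H2-D1 is highest in IR 56 d.

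Other p53 targets had fewer counts. Ccng1, cyclin G1, had 48 UMIs in IR 24 h and 2 in CON 24 h, a ratio of 17.8 (4.66 to 151), and its ratio of CON 56 d over CON 24 h was 3.32 (0.725 to 30.8). Mdm2, the ubiquitin ligase that limits p53, had 46 UMIs in IR 24 h and 7 in CON 24 h, a ratio of 4.87 (2.18 to 12.8). Each interval lay above 2-fold, and that of Ccng1 was wide because CON 24 h held only 2 UMIs.

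Phlda3, a repressor of Akt signalling, had 172 UMIs in IR 24 h and 45 in CON 24 h, a ratio of 2.83 (2.03 to 4.03). Trp53inp1, a p53-induced nuclear protein, had 59 UMIs in IR 24 h and 4 in CON 24 h, a ratio of 10.9 (4.05 to 41.4). The stress cytokine gene Gdf15 had 61 UMIs in 24 members of IR 24 h and none in CON 24 h, at least 15.1-fold higher against a floor of 3 UMIs in CON 24 h. The exact 95% interval of its ratio, which also counts the error in IR 24 h, began at 11.9. Among the pro-apoptotic members, Bax was at 281 CPM in IR 24 h and 108 in CON 24 h, a ratio of 2.59 (1.74 to 3.97), and Bbc3, which encodes Puma, had 26 UMIs in IR 24 h and 2 in CON 24 h. The single p53-list gene called lower was Tnfrsf12a, the receptor of the cytokine TWEAK, at 60.2 CPM in IR 24 h and 122 in CON 24 h, a ratio of 0.494 (0.282 to 0.851) that was 0.547 in the 215 and there short of 2-fold. Its ratio of CON 56 d over CON 24 h was 0.101.

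The promoters of the p53-list genes are shown because p53 binds a known 10-base half-site, usually as a pair. In the 250 bases before each start in the RefSeq promoter table (GRCm38.p6), a match of the p53 consensus half-site, which reads the same on both strands, occurred in 10 of 44 windows of 34 list genes (22.7%) and in 2341 of 32851 windows of all genes (7.13%). A pair of half-sites at most 13 bases apart occurred in 1 list window, that of Cdkn1a, and in 21 of all windows (0.0639%). The Cdkn1a window is chr17:29090729-29090978 on the plus strand, the Ccng1 window chr11:40755287-40755536 and the Mdm2 window chr10:117710759-117711008, both on the minus strand. Capitals mark the half-sites, and each sequence reads 5′ to 3′ along the gene. A match is a description of letters and does not show binding. The search, its window and the 3 genes printed, which hold a match, were chosen after the values had been seen. The windows of Phlda3, Gdf15 and Bbc3 and the second Cdkn1a start held no match.
Cdkn1a: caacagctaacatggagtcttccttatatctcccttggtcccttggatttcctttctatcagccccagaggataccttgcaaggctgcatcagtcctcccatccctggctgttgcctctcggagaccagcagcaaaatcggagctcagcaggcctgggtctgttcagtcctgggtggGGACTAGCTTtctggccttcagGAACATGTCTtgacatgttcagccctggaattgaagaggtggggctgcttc
Ccng1: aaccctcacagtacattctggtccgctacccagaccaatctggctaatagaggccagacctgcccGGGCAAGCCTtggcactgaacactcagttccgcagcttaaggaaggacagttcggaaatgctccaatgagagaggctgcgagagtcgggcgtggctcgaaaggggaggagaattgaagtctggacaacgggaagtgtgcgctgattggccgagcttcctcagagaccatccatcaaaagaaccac
Mdm2: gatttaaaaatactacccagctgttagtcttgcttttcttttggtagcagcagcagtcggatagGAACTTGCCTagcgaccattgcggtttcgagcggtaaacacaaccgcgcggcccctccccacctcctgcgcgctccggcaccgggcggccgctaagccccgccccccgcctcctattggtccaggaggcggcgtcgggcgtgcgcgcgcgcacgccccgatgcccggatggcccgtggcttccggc

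**Figure D3:**
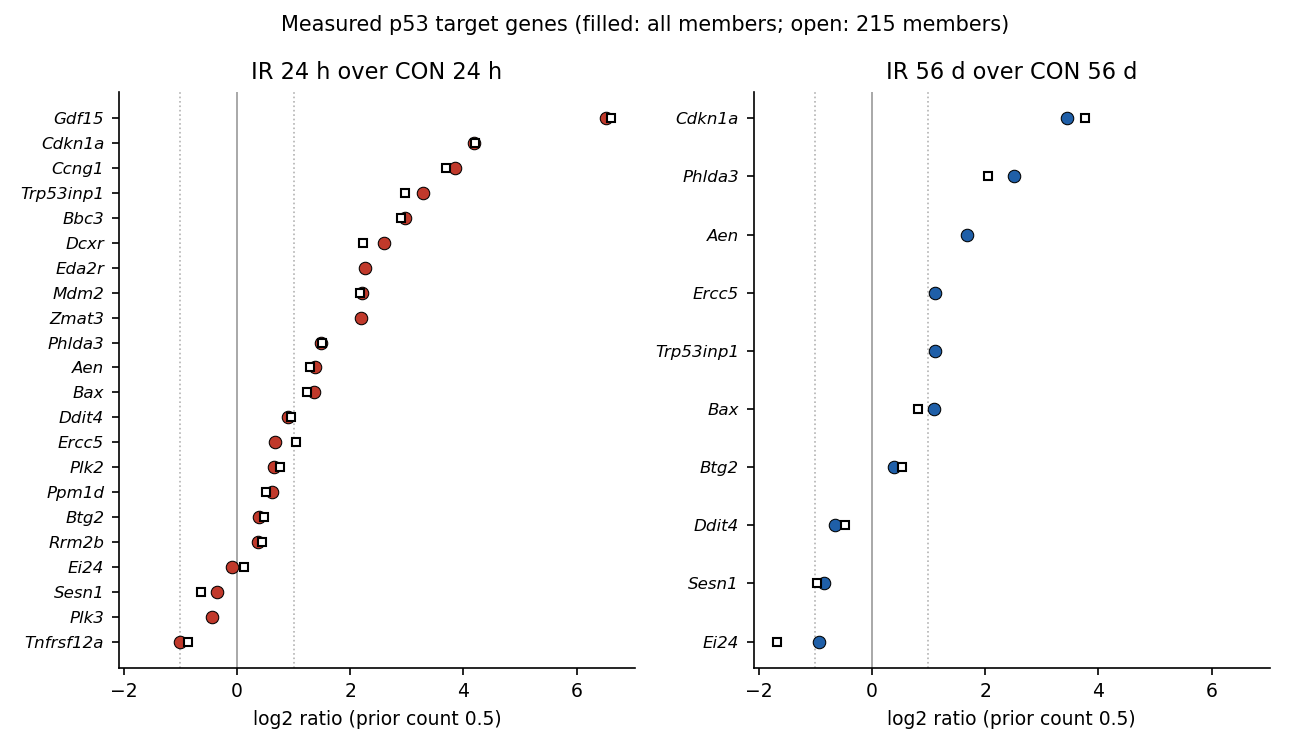
Log2 ratios, with a prior count of 0.5, of the measured p53 target genes at 24 hours (left) and 56 days (right), with filled circles for all members, open squares for the 215 where measured there, and dotted lines at 2-fold. At 24 hours 12 of 22 genes lie at or above 2-fold in IR, and at 56 days 6 of 10.

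Outside the p53 list, the genes furthest higher at 24 hours included Gas6, Serpine2 and Mmp2. Gas6, the ligand of the Axl, Tyro3 and Mertk receptors, had 434 UMIs in IR 24 h and 29 in CON 24 h. This was 1089 CPM in IR 24 h and 98.2 in CON 24 h, a ratio of 11.1 (7.61 to 16.8). Serpine2, a serine protease inhibitor, had 80 UMIs in IR 24 h and 4 in CON 24 h, a ratio of 14.8 (5.57 to 55.7). Mmp2, a matrix metalloproteinase, had 383 UMIs in IR 24 h and 51 in CON 24 h, a ratio of 5.56 (4.15 to 7.61), and its ratio of CON 56 d over CON 24 h was 2.37 (1.28 in the 215). Each of these 3 ratios of IR 24 h over CON 24 h moved by under 1.5 times in the 215. Cox6b2 had 33 UMIs in IR 24 h and 1 in CON 24 h, a ratio of 24.5 (4.09 to 995).

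UMIs of some genes furthest higher at 24 hours came from the tenocyte-gene members. Aspn had 106 UMIs in IR 24 h and 2 in CON 24 h, Chad 38 in IR 24 h and 0 in CON 24 h, and Mfap4 48 in IR 24 h and 1 in CON 24 h. In the 215 these 3 genes were at 0 in both libraries. Apod had 84 UMIs in IR 24 h, of which the 215 held 20, and 3 in CON 24 h, of which the 215 held 0. Ranking the 215 in their place added Timp3, an inhibitor of metalloproteinases, at 218 CPM in IR 24 h, 37.5 in CON 24 h and 122 in CON 56 d, and Gria3, Arpp21 and Enho.

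Among the genes furthest lower at 24 hours, Mt2, a metallothionein, was at 211 CPM in IR 24 h and 579 in CON 24 h, a ratio of 0.364 (0.277 to 0.475). Hspa1b, an inducible heat shock protein, was at 97.9 CPM in IR 24 h and 298 in CON 24 h, a ratio of 0.328 (0.219 to 0.484). Gapdh, the glycolytic dehydrogenase, was at 324 CPM in IR 24 h and 725 in CON 24 h, a ratio of 0.447 (0.356 to 0.558). The actin-binding peptide gene Tmsb10 was at 1112 CPM in IR 24 h and 2239 in CON 24 h, a ratio of 0.497 (0.439 to 0.561). Of these 4 genes, Mt2, Gapdh and Tmsb10 were also at least 2-fold lower in CON 56 d than in CON 24 h, with ratios of 0.484, 0.336 and 0.296, so CON 24 h was their high library. Pik3r2, Nexn, Ankrd1, Ccn1, Zfas1, Amotl2 and Snx18 had ratios of 0.202 to 0.392.

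Ccnd1, cyclin D1, was lower in the irradiated library at both times. It was at 309 CPM in IR 24 h and 650 in CON 24 h, a ratio of 0.475 (0.375 to 0.598), and at 32.7 CPM in IR 56 d and 125 in CON 56 d, a ratio of 0.262 (0.0821 to 0.645). The second value rests on 5 UMIs in 2 members of IR 56 d and 61 UMIs in 21 members of CON 56 d. In the 215 the ratio at 24 hours was 0.512, short of 2-fold. Ccnd1 also differed between shielded limbs, with a ratio of CON 56 d over CON 24 h of 0.192 (0.141 to 0.257). Myod1, the factor of activated satellite cells, was at 52.7 CPM in IR 24 h and 119 in CON 24 h, a ratio of 0.445 (0.246 to 0.785), and at 45.7 in IR 56 d and 69.5 in CON 56 d, from 7 UMIs in IR 56 d and 34 in CON 56 d. The commitment and differentiation list did not follow Myod1 at 24 hours. Of 14 measured genes 3 were higher and 1 lower, against 10.2% and 3.43% of all measured genes. The median log2 ratio was 0.47 (0.52 in the 215, with the same counts). At 56 days, of 13 measured none was higher and 1 lower, against 6.75% and 8.93%, with a median of -0.47.

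At 56 days Cdkn1a was again first among the genes higher in irradiated limbs. Cdkn1a had 104 UMIs in IR 56 d and 30 in CON 56 d, which was 679 CPM (555 to 823) in IR 56 d and 61.3 CPM (41.4 to 87.6) in CON 56 d, a ratio of 11.1 (7.31 to 17.2). Of 10 measured list genes 6 were at least 2-fold higher and none lower, against 6.75% and 8.93% of all measured genes. In the 215, of 7 measured genes 2 were higher and 1 was lower, against 5.19% and 8.81% of all measured genes. The higher genes were Cdkn1a and Phlda3, and the lower was Ei24, with 2 UMIs in IR 56 d and 27 in CON 56 d. The list median was 1.11 in all members and 0.53 in the 215. Phlda3 had 43 UMIs in IR 56 d and 24 in CON 56 d, a ratio of 5.72 (3.40 to 9.86), and its ratio of CON 56 d over CON 24 h was 0.322 (0.188 to 0.540). Mdm2 had 2 UMIs in IR 56 d and 4 in CON 56 d, Ccng1 had 6 in IR 56 d and 11 in CON 56 d, and Gdf15 had 1 in IR 56 d and 7, all in 1 barcode, in CON 56 d. The intervals of all 3 ratios held 1.

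Gas6 was also higher at 56 days, with 92 UMIs in IR 56 d and 79 in CON 56 d, a ratio of 3.72 (2.72 to 5.09). Of the TGF-beta and BMP list 4 of 27 measured genes were higher at 56 days and 1 lower, against 6.75% and 8.93% of all measured genes. The median log2 ratio was 0.12. In the 215, 4 of 21 were higher and 2 lower, against 5.19% and 8.81% of all measured genes, with a median of 0.042. Tgfb2, a transforming growth factor, was at 146 CPM in IR 24 h, 156 in CON 24 h, 248 in IR 56 d and 59.3 in CON 56 d, a ratio of 4.18 (2.51 to 7.04) at 56 days. Bmp4, a bone morphogenetic protein, was at 168, 173, 183 and 67.5 CPM in the same order, a ratio of 2.71 (1.58 to 4.62). CON 56 d was the lowest of the 4 libraries for both genes, with ratios to CON 24 h of 0.381 for Tgfb2 and 0.391 for Bmp4. Pdgfa, a platelet-derived growth factor, was also lowest there, at 208 CPM in IR 24 h, 271 in CON 24 h, 248 in IR 56 d and 102 in CON 56 d. Socs3, a feedback inhibitor of cytokine signalling, was at 1038 CPM in IR 56 d and 411 in CON 56 d, a ratio of 2.53 (2.04 to 3.13), and Cxcl1, a neutrophil chemokine, had 19 UMIs in IR 56 d and 11 in CON 56 d, a ratio of 5.52 (2.49 to 12.8). Cxcl1 was also higher in IR 24 h than in CON 24 h, with a ratio of 2.46, and lower in CON 56 d than in CON 24 h, with a ratio of 0.237. Pold4, a subunit of DNA polymerase delta, was at 196 CPM in IR 56 d and 59.3 in CON 56 d, a ratio of 3.30 (1.92 to 5.70). Slc44a2, a choline transporter, had 31 UMIs in IR 56 d and 19 in CON 56 d, a ratio of 5.21 (2.85 to 9.76) and of 3.45 (1.47 to 8.08) in the 215.

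MHC class I genes, which present peptides to CD8+ T cells, were higher at 56 days in part. Of 9 measured 5 were at least 2-fold higher and none lower, against 6.75% and 8.93% of all measured genes, and the median log2 ratio was 1.21. In the 215, 3 of 7 were higher, against 5.19%, and the median was 0.92. H2-D1, a class I heavy chain, was at 614 CPM in IR 56 d and 237 in CON 56 d, a ratio of 2.59 (1.95 to 3.43). H2-K1 was at 411 CPM in IR 56 d and 178 in CON 56 d, a ratio of 2.31 (1.65 to 3.24), and B2m, the class I light chain, at 366 CPM in IR 56 d and 155 in CON 56 d, a ratio of 2.35 (1.64 to 3.37). In the 215 B2m was at 301 CPM in IR 56 d and 92.5 in CON 56 d, a ratio of 3.25 (1.94 to 5.43). At 24 hours the H2-D1 ratio was 1.25 (0.921 to 1.72) and 1 of 8 measured class I genes was called higher, against 10.2% of all measured genes. Interferon genes were few: 5 were measured at 24 hours and 4 at 56 days, with medians of 1.44 and -0.15 (0.92 at 56 days in the 215, from 3 genes).

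UMIs of other genes furthest higher at 56 days lay in the tenocyte-gene members. Timp1 had 38 UMIs in IR 56 d and 15 in CON 56 d, Matn4 19 in IR 56 d and 6 in CON 56 d, and Angptl7 38 in IR 56 d and 20 in CON 56 d, and none of these UMIs lay in the 215. Bst2, an interferon-induced membrane protein, had a ratio of 4.79 (2.71 to 8.62) in all members and 1.84 (0.676 to 4.63) in the 215. Mmp2 had a ratio of 2.17 (1.73 to 2.71) in all members and 1.17 (0.646 to 2.03) in the 215. Mmp2 thus did not reach 2-fold at 56 days in the 215.

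The genes furthest lower at 56 days held few UMIs in IR 56 d or lost size in the 215. Galnt1, which starts O-linked glycosylation, had 1 UMI in IR 56 d and 60 in CON 56 d, a ratio of 0.0532 (0.00133 to 0.308) and of 0.0885 (0.00219 to 0.523) in the 215. Cbx7, a Polycomb protein, had 0 UMIs in IR 56 d and 30 in CON 56 d, at least 3.13-fold lower against a floor of 3 UMIs in IR 56 d. Tfdp2, Gabpb2, Myo6 and Isg20 had 0 or 1 UMI in IR 56 d and 29 to 47 in CON 56 d, and Isg20 had 8 of its 29 in the 215. Hist1h1e, a linker histone, had a ratio of 0.201 (0.108 to 0.344) in all members and 0.427 (0.220 to 0.763) in the 215. Gpx1, a glutathione peroxidase, had a ratio of 0.230 (0.112 to 0.423) and of 0.863 (0.156 to 3.20) in the 215. Between shielded limbs, CON 56 d over CON 24 h, the ratios of Galnt1, Hist1h1e and Gpx1 were 2.13, 3.96 and 7.11 in all members, and 2.02, 2.24 and 0.792 in the 215.

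The cell cycle list held genes with most of their UMIs in 1 barcode. Of 16 measured genes 10 were at least 2-fold lower in IR 56 d and 1 higher, against 8.93% and 6.75% of all measured genes, and the median log2 ratio was -1.95, or -1.48 with the 6 genes at 0 in one library set at their bound. One of the haemoglobin-rich CON 56 d members, with 32103 UMIs, held 83 of the 88 Mki67 UMIs and all 31 Top2a UMIs. What part that barcode alone had in the list median was not tested. In the 215, 5 genes were measured, 1 was lower, against 8.81% of all measured genes, and the median was 0.48. Mki67 had 0, 1, 0 and 0 UMIs in IR 24 h, CON 24 h, IR 56 d and CON 56 d of the 215, so Mki67, a marker of dividing cells, was not detectable at this depth in 3 of the libraries.

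**Figure D4:**
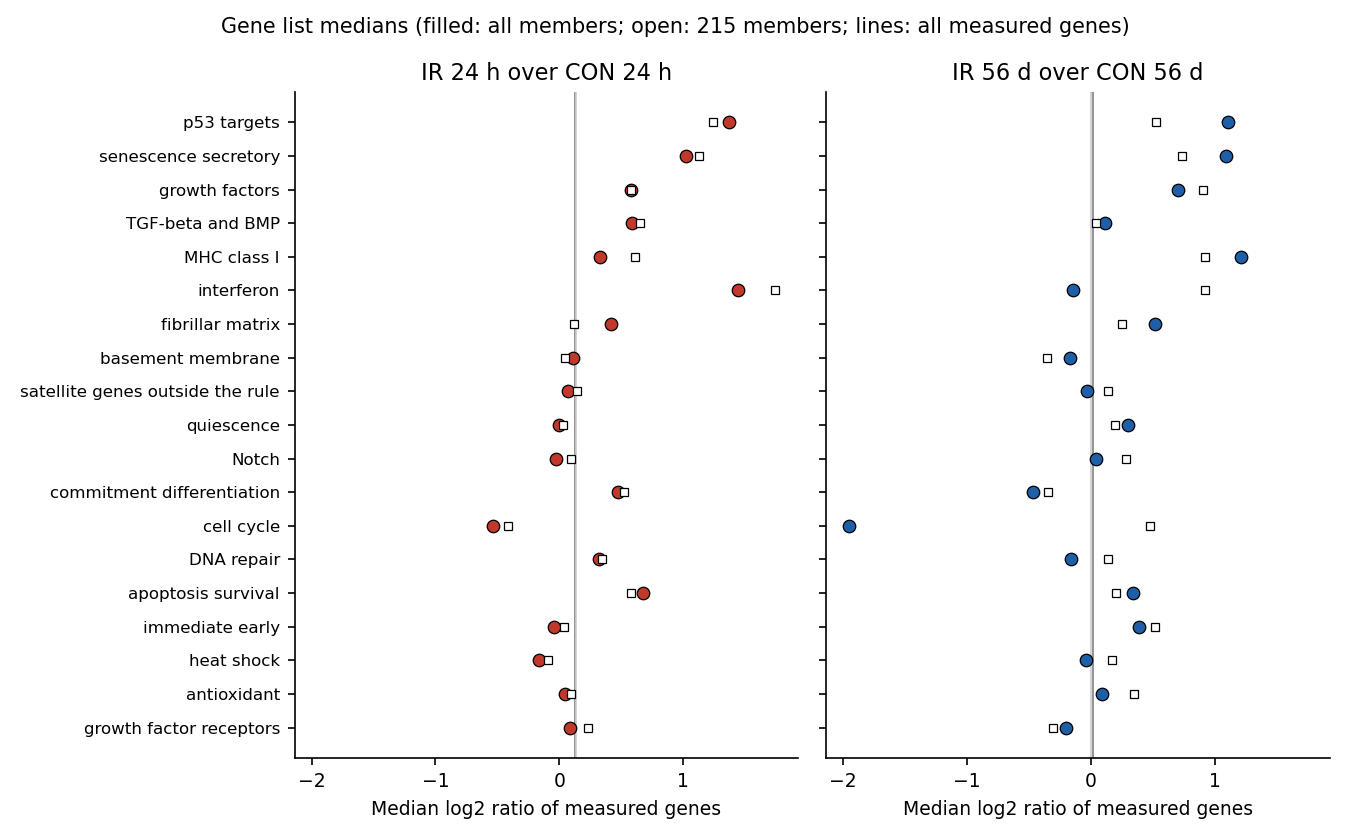
Median log2 ratios of the measured genes of 19 lists at 24 hours (left) and 56 days (right), filled circles for all members, open squares for the 215 and vertical lines for all measured genes. Filled circles of the p53, senescence, growth factor and MHC class I lists lie right of the line at both times. So do those of the TGF-beta and BMP, apoptosis and fibrillar matrix lists. The cell cycle list at 56 days is at -1.95 for all members and at 0.48 for the 215.

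Among the other lists, the satellite identity, quiescence and Notch medians stayed near those of all genes. At 24 hours they were 0.07, 0.00 and -0.03, and at 56 days -0.03, 0.30 and 0.04. No gene of the identity list was called in either direction at either time. Of the Notch list none was called in all members, and in the 215 the receptor gene Notch2 was called higher at 56 days, with 32 UMIs in IR 56 d and 53 in CON 56 d. That was 1 of 12 measured Notch genes, against 5.19% of all measured genes. Quiescence genes called at 24 hours were 1 of 24 measured higher and 1 lower, against 10.2% and 3.43% of all measured genes. The higher was Tgfbr3, a co-receptor of transforming growth factor beta, with 184 UMIs in IR 24 h and 50 in CON 24 h. Its ratio of CON 56 d over CON 24 h was 2.64. The lower was Rgs5, with 3 UMIs in IR 24 h and 39 in CON 24 h. Rgs5 was also lower in CON 56 d than in CON 24 h, with a log2 ratio of -5.45. Among senescence-associated secreted factors and markers 6 of 11 were higher at 24 hours, against 10.2% of all measured genes, with a median of 1.02 (5 of 9 and 1.13 in the 215). At 56 days 6 of 10 were higher, against 6.75%, with a median of 1.09, while in the 215 the count was 3 of 7, against 5.19%, and the median 0.73. This list shared Cdkn1a and, at 24 hours, Gdf15 with the p53 list. Of growth factors 4 of 12 were higher at 24 hours, against 10.2%, with a median of 0.57, and 4 of 11 at 56 days, against 6.75%, with a median of 0.70. In the 215 these were 3 of 10, against 10.2%, with a median of 0.58 and 4 of 10, against 5.19%, with a median of 0.91. Of fibrillar matrix genes 10 of 29 were higher and none lower at 24 hours, with a median of 0.42, and in the 215 3 of 16 were higher and 1 lower, with a median of 0.12, beside 10.2% of all measured genes higher in both sets.

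Cdkn1a and a few other genes, picked after their values had been seen, were set beside endothelial and FAP barcodes of the same libraries. FAP barcodes numbered 25 in IR 24 h, 21 in CON 24 h, 22 in IR 56 d and 65 in CON 56 d. FAP barcodes held at least 2 Pdgfra UMIs, under 3 endothelial and under 3 satellite UMIs, and no Ptprc. In endothelial barcodes Cdkn1a was at 2336 CPM in IR 24 h and 308 in CON 24 h, a ratio of 7.59 (6.98 to 8.26), and at 1416 in IR 56 d and 160 in CON 56 d, a ratio of 8.84 (7.97 to 9.81). In FAP barcodes the ratios were 15.5 (9.68 to 26.4) and 4.43 (3.10 to 6.35). Cdkn1a was thus higher in IR than in CON in all 3 cell types at both times. Gas6 was higher too, with endothelial ratios of 2.60 and 2.52 and FAP ratios of 7.72 and 4.06. Ccnd1, lower in IR members, was higher elsewhere, since its endothelial ratios were 1.94 (1.76 to 2.14) at 24 hours and 3.84 (3.49 to 4.22) at 56 days, and its FAP ratios 2.89 (1.69 to 5.21) and 3.53 (1.65 to 7.54). H2-D1 at 56 days had an endothelial ratio of 1.59 (1.53 to 1.65) and an FAP ratio of 2.25 (1.86 to 2.71). The differences between cell types were not tested.

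A Cdkn1a UMI was found in 88.0% of members in IR 24 h, 31.6% in CON 24 h, 47.4% in IR 56 d and 18.1% in CON 56 d, and because depth differed, each barcode was also thinned to 1000 UMIs. Thinned shares were 66.2% (54.8 to 76.4) in IR 24 h, 2.63% (0.0666 to 13.8) in CON 24 h, 34.3% (19.1 to 52.2) in IR 56 d and 4.26% (1.17 to 10.5) in CON 56 d. In endothelial barcodes they were 82.3%, 19.2%, 62.9% and 12.8% in that order. Thinning left out 3 members of IR 24 h and 3 of IR 56 d. In FAP barcodes thinned shares were 52.0%, 0%, 27.3% and 7.69%. The thinned IR share exceeded the CON share at both times in all 3 cell types, but the unthinned FAP shares at 56 days were 31.8% in IR 56 d and 32.3% in CON 56 d.

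**Figure D5:**
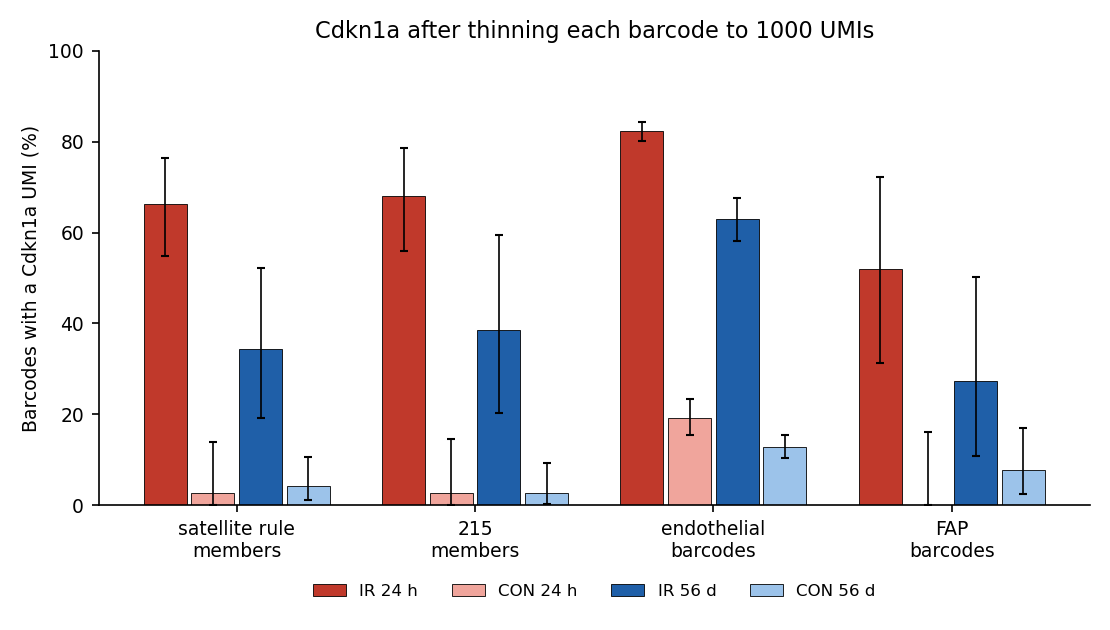
Bars give the percent of barcodes with a Cdkn1a UMI after thinning to 1000 UMIs, with exact binomial 95% intervals, by library and barcode set. Satellite rule members reach 66.2% in IR 24 h and 34.3% in IR 56 d, against 2.63% in CON 24 h and 4.26% in CON 56 d.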

How the data were processed

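Gene by barcode UMI counts were deposited by the authors as 10x matrices, made with Cell Ranger 5.0.0 and build mm10 per the submitters' processing notes. The counting settings are not given in the sources used here, and no doublet step is recorded there or was added. From the deposited counts, member barcodes of each library were summed and scaled to CPM of their total. Ratios carry exact conditional binomial intervals. With 1 library per group no test was run. Intervals were tested on simulated counts, with the outcome not given here, and they cover counting error only. Members, lists and comparisons were chosen with earlier results of these data known, and the 215 after the values were seen. Genes named individually were the 12 furthest higher and 12 furthest lower at 24 hours and the 8 and 8 at 56 days. They were ranked by the interval bound nearest to 1, with a UMI in at least 3 members and no barcode over 50% of UMIs. The ranking left out rule genes, markers of other cell types and mitochondrial, ribosomal protein, haemoglobin, immunoglobulin, T cell receptor and predicted genes. Of sex-linked genes it left out Xist, Tsix, Ddx3y, Eif2s3y, Kdm5d and Uty only. Also named were Cdkn1a, Mdm2, Ccng1, Phlda3, the rule genes and, from each list, up to 6 members with most UMIs and those past 2-fold. The same ranking was repeated on the 215. Of 584 listed symbols 1 had no match. Alternatives are given at the end. The work used Python 3.11.15, numpy 2.4.6, scipy 1.17.1 and pandas 2.3.3. Some genes are not reported here.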

Additional observations from a re-analysis of the deposited data

Results flagged for a closer look

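A search for genes at least 2-fold apart in opposite directions at 24 hours and 56 days, a limit set after the values had been seen, found 4 genes. The number of genes searched is not given here, so no share can be set beside the 4. Of all measured genes, 10.2% were called higher and 3.43% lower at 24 hours, and 6.75% and 8.93% at 56 days. The differences between the times were not tested, and with 1 library per group no sample spread is known. Ccn1, a matricellular protein, had a log2 ratio of IR over CON of -1.36 at 24 hours and 1.86 at 56 days (-1.63 and 1.08 in the 215), from 44 and 84 UMIs and from 89 and 78 UMIs. Cycs, cytochrome c, had -1.11 and 1.38 from 18 and 29 UMIs and from 17 and 21 UMIs. Tmsb10 had -1.01 and 1.25 from 443 and 661 UMIs and from 241 and 324 UMIs. Rb1, the retinoblastoma protein, had 2.49 and -1.49 from 26 and 3 UMIs and from 3 and 31 UMIs. The shielded limbs also differed past 2-fold for Rb1, Cycs and Tmsb10, while Ccn1 stayed within 2-fold. The log2 ratio of CON 56 d over CON 24 h was 2.44 for Rb1 and -1.18 for Cycs, and Tmsb10 was lower too, as given above. What part this had in the opposite signs was not tested. In each pair of counts the IR library stands before the CON library. All 4 kept their signs in the 215.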

How the results depend on the processing

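No paired analysis was possible because each group is 1 library and no test was run. The cause of each shift below was not tested unless the setting itself changes which genes or members count. Of list medians under all settings, 756 stayed within the order-statistic interval of the median, which is wide for short lists, 25 moved beyond it and 13 that were past 2-fold changed sign. Of values for named genes, which have no such interval, 862 were labelled the same, 40 moved and 8 reversed in sign. The limit for those labels is not given here. The log2 ratio of Cdkn1a lay between 4.03 and 5.56 at 24 hours and between 3.15 and 3.93 at 56 days under every setting run.

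Leaving out members with 3 or more UMIs of other-cell markers left almost no members, with shares of 0.118% in IR 24 h, 0% in CON 24 h, 0.206% in IR 56 d and 0.0588% in CON 56 d. Ratios were therefore not computed under that setting, a limit of 5 members set after this was seen. Without tenocyte-gene and haemoglobin-rich members, an alternative chosen after seeing the data, the CON 56 d share was 4.41%. Cdkn1a in IR 24 h was 2043 CPM without the 5% of members with most UMIs and 2106 CPM without tenocyte-gene members, with or without the haemoglobin-rich ones, against 1875 CPM. Thinning each cell to 1000 UMIs gave Cdkn1a shares of 66.2% in IR 24 h, 2.63% in CON 24 h and 4.26% in CON 56 d.

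Counts past 2-fold followed the minimum and the fold. At 24 hours, 99 genes were higher after thinning, 1042 with at least 10 summed UMIs, 146 with at least 50 and 1293 at 1.5-fold, against 525. Those lower were 48, 357, 43 and 618 in the same order, against 177. At 56 days, those higher were 61, 744, 87 and 875, against 323, and 186 without tenocyte-gene and haemoglobin-rich members. Those lower were 60, 905, 95 and 929, against 427, and 205 with a prior count of 2. For CON 56 d over CON 24 h, those higher were 108, 1060, 130 and 1080, against 514, and 341 without tenocyte-gene and haemoglobin-rich members. Those lower were 69, 579, 83 and 948, against 300.

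List medians (log2) at 24 hours moved under thinning to 0.38 for quiescence, 0.39 for Notch and 1.34 for growth factors. The Notch median was -0.16 when scaled by the median of ratios, and the interferon median changed sign to -0.13 with at least 50 summed UMIs. The fibrillar matrix median was 1.46 with endothelial UMIs at 0 and 0.12 without tenocyte-gene members, with or without the haemoglobin-rich ones. Without either kind, Mfap4, Chad and Aspn, at 0 UMIs in both libraries, had a log2 ratio of -0.33 set by the prior count alone.

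At 56 days the satellite identity median was 0.27 without tenocyte-gene members. The cell cycle median changed sign to 0.48 without the 5% of members with most UMIs, 0.48 without tenocyte-gene and haemoglobin-rich members, 0.20 under thinning and 0.28 without the top cell of each gene. Thinning gave -1.34 for apoptosis, 1.82 for MHC class I and 0.40 for antioxidant genes. The growth factor receptor median was -0.016 with at least 5 satellite UMIs. The basement membrane median was -0.35 without the 5% of members with most UMIs and -0.35 without tenocyte-gene and haemoglobin-rich members. The fibrillar matrix median was 0.066 with cells weighted equally. Gpx1 changed sign to 0.52 without the 5% of members with most UMIs.

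For CON 56 d over CON 24 h, thinning gave 0.66 for Notch, 0.21 for p53 targets, -0.081 for MHC class I, 1.58 for fibrillar matrix, -0.36 for interferon and -1.06 for cell cycle genes, and 0.28 for Mdm2 against -1.46. The interferon median was -0.45 with at least 50 summed UMIs. The cell cycle median, 1.29 as reported, was -0.86 without the 5% of members with most UMIs, -0.72 without tenocyte-gene and haemoglobin-rich members, -0.15 with cells weighted equally, -0.62 with at least 50 summed UMIs and -0.66 without the top cell of each gene. The fibrillar matrix median was 1.51 with endothelial UMIs at 0, 1.63 without the 5% of members with most UMIs, -0.69 without tenocyte-gene members, -0.55 without haemoglobin-rich ones too, 0.93 with cells weighted equally and 0.99 without the top cell of each gene.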
